A study of Mus musculus with 64 samples.

Results

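The 16 libraries described here come from whole colon of specific pathogen free (SPF) mice that had received vancomycin, with 4 libraries at each of 4 times of day, out of 64 libraries in the series. They were chosen by their labels alone, as all vancomycin libraries of the SPF table. The question this design addresses is which colon transcripts differ between times of day in mice given this antibiotic. The mice were wild-type Swiss Webster animals, an outbred stock, aged 8 to 12 weeks and kept on 12 h of light and 12 h of darkness. Each vancomycin injection was intraperitoneal and held 2.5 mg in 100 µl PBS, and 2 were given on each of 3 days with a last one on day 4. The groups are SPF vancomycin at zeitgeber time (ZT) 5, 11, 17 and 23, where ZT by convention counts hours from lights on, so that the first pair of times falls in the light and the second pair in the dark. SPF mice injected with PBS at the same 4 times (16 libraries) and germ-free (GF) mice given vancomycin or PBS at those times (16 libraries each) serve for comparison. How long before collection the last injection was given is not stated in the labels. The labels do not say whether the libraries of a group are separate animals, and the p-values therefore rest on the variation among libraries, which may be technical.

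Nearly every cell holds a clock in which BMAL1, encoded by Arntl, pairs with CLOCK or NPAS2 and switches on genes through E-boxes. Among these genes are the Per and Cry repressors, which shut the pair off, and Nr1d1 and Nr1d2, whose REV-ERB proteins hold Arntl down through elements they share with the ROR activators. A further group, the PAR bZIP factors DBP, TEF and HLF, acts through D-boxes and carries the rhythm to metabolic and detoxification genes. In the gut, feeding time is a strong cue for these clocks, and absorption, lipid metabolism and epithelial defence are known to vary over the day.

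Estimated counts summed to 10044032 to 13615804 per vancomycin library and to 11395682 to 13590805 per PBS library. Levels are given in CPM, the count scaled to a common library total. Hox genes of the distal colon had a mean of 3.52 to 4.84 log2 CPM in the vancomycin groups, above those of the proximal colon (1.78 to 2.84) in each of the 16 libraries. The proximal score was not even over the times. It ran from 1.78 to 2.11 at ZT5, 2.14 to 2.84 at ZT11, 2.18 to 2.39 at ZT17 and 1.92 to 2.57 at ZT23. ZT5 and ZT11 thus did not overlap. The distal score averaged 4.42 at ZT5 and 4.04 at ZT11, and these groups overlapped. The smooth muscle marker score, a mean over 20 genes, ran from 8.25 to 8.43 log2 CPM at ZT5, 8.60 to 9.74 at ZT11, 8.35 to 8.77 at ZT17 and 7.35 to 8.34 at ZT23 after vancomycin. Its group mean was highest at ZT11 and lowest at ZT23. In these bulk libraries fewer cells of a type and less RNA per cell cannot be told apart.

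Time of day was called for 1389 of 16938 genes after vancomycin, which is 8.2% (edgeR quasi-likelihood F test of 3 contrasts between times, adjusted p under 0.05). The highest mean of a called gene lay at ZT5 for 119 genes (0.703% of those tested), at ZT11 for 717 (4.23%), at ZT17 for 297 (1.75%) and at ZT23 for 256 (1.51%). Between ZT17 and ZT5, 179 genes differed (1.06%), 104 higher (0.614%) and 75 lower (0.443%). Between ZT23 and ZT11, 1370 differed (8.09%), 462 higher (2.73%) and 908 lower (5.36%). The median amplitude of a 24 h cosine through the 4 group means was 0.49 log2 units among called genes, against 0.20 over all genes tested. Genes were called on differences between these same 4 groups, so a larger amplitude among them follows from that choice. Peak and trough of the cosine were at least 2-fold apart for 671 called genes and at least 4-fold apart for 113. With samples 6 h apart, the peak hour is an interpolation, and it is given with a standard error (SE) from the spread within groups.

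Most genes of the core clock loop, its activators, repressors and D-box factors, differed between the times of day. Of 21 tested, 14 were called, with Arntl and Npas2 high at ZT5 and ZT11, Nr1d1, Dbp and Ciart highest at ZT17 and Per2 highest at ZT23. A separate list of 12 clock modifiers, such as kinases that act on clock proteins, is not among the 21. It held 1 called gene, Usp2, or 8.33%, close to the 8.2% of all genes. Counts of called members are given with their range over 12 alternative analyses (other tools, filters, covariates or sets of libraries) and over the 16 fits that left out 1 vancomycin library. The 14 clock calls became 9 with the smooth muscle covariate and 9 without the ZT11 libraries, 15 in DESeq2, and 11 to 14 with 1 library left out. Arntl and Npas2 were called in all 28 alternative analyses, as were Nr1d1, Nr1d2, Dbp, Ciart, Per3 and Tef. The core clock promoters that follow are shown because each holds an element through which one arm of this loop acts. They are RefSeq windows of build GRCm38.p6, not the GRCm39 build of the files, running from 250 bases before to 50 bases after a gene's start, written along the gene's own strand, with the element in capitals.
Ciart, chr3:95882179-95882478, minus strand, E-box CACGTG: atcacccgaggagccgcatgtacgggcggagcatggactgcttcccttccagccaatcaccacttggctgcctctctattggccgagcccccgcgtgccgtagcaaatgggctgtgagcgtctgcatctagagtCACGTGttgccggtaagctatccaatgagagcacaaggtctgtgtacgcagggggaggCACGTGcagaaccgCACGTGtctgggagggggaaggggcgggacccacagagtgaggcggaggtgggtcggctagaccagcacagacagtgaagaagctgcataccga
Per3, chr4:151044616-151044915, minus strand, D-box TTATGTAA: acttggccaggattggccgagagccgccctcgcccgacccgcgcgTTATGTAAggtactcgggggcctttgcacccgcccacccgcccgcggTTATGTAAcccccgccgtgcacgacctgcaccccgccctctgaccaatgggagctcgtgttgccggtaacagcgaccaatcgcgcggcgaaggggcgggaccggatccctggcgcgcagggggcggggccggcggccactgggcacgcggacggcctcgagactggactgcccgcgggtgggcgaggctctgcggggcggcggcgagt
Arntl, chr7:113207261-113207560, plus strand, ROR and REV-ERB element TAGGTCA: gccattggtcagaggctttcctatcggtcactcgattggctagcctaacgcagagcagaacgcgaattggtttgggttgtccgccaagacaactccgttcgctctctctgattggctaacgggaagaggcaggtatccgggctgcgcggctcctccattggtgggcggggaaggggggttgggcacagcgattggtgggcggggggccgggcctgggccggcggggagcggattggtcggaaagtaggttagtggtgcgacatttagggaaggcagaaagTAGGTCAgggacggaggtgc
Ciart held 3 E-boxes within the window and Per3 held 2 D-boxes. Among the 14 called clock genes 12 had a promoter in the table, and the E-box occurred in 4 of these 12 (Bhlhe41, Ciart, Per1 and Tef), or 33.3%, against 7.15% of all 32851 windows. It also occurred in 3 of the 11 promoters in the table of called cholesterol genes, or 27.3%. The D-box occurred in 1 of the 12, against 0.938% of all windows, and the ROR element in 2 of the 12 (Arntl and Nfil3, both high in the light), or 16.7%, against 2.61%. A gene was counted if any of its windows held the element, while the share over all windows counts each window alone. Genes with several windows had more chances of a match, so these shares are not measured alike. Both strands were searched, and a match is a description of the letters only.

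Among the activators, Arntl had 80.7, 48.5, 61.2 and 68.1 CPM at ZT5 and 60.7, 57.5, 59.3 and 43.3 CPM at ZT11. It had 14.4, 14.5, 18.7 and 15.1 CPM at ZT17 and 30.1, 11.4, 26.4 and 21 CPM at ZT23. Each library of the light phase lay above each library of the dark phase. The log2 fold change between ZT17 and ZT5 was -2.04 with an SE of 0.24 (adjusted p = 1.76e-05; errors of later fold changes and of peak hours are SEs too), and the fitted peak lay at 7.29 ± 0.385 h. Npas2, the partner that can stand in for CLOCK, had 61, 24.4, 49.4 and 43.9 CPM at ZT5 and 51.3, 43.1, 51 and 39.8 CPM at ZT11, against 15.6, 11.9, 18.7 and 14.4 CPM at ZT17 and 13.6, 7.39, 15 and 19.1 CPM at ZT23. Its light-phase and dark-phase libraries did not overlap either, and its peak lay at 8.36 ± 0.491 h. Clock itself, whose transcript is steady in many tissues, averaged 98.8 ± 4.89, 93.4 ± 7.43, 87.1 ± 9.87 and 85.6 ± 9.35 CPM at the 4 times (SD, n = 4 each; adjusted p = 0.39).

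The repressors and D-box factors described next had their highest mean at ZT17. Nr1d1 had 6.76, 12.5, 8.44 and 12.3 CPM at ZT5, 54.5, 56.6, 65.8 and 53.7 CPM at ZT11, 107, 74.8, 136 and 120.0 CPM at ZT17 and 20.3, 36.7, 23.5 and 27.8 CPM at ZT23. None of its 4 groups overlapped another. It peaked at 15.8 ± 0.301 h, with peak and trough 12.3-fold apart (adjusted p = 1.55e-07). Dbp had 8.86, 11.9, 6.1 and 6.09 CPM at ZT5, 8.67, 22.8, 31.2 and 10.1 CPM at ZT11, 122, 116, 114 and 142 CPM at ZT17 and 26.2, 56.1, 27.8 and 41.1 CPM at ZT23. Its ZT17 libraries lay above all others, and its log2 fold change of 3.90 ± 0.43 between ZT17 and ZT5 had an adjusted p of 6.13e-06. Ciart, a repressor that binds the BMAL1 complex, had 1.61, 1.1, 2.06 and 2.72 CPM at ZT5, 1.17, 1.75, 1.76 and 1.44 CPM at ZT11, 18.6, 24.2, 14.1 and 30.5 CPM at ZT17 and 8.16, 7.24, 9.21 and 7.42 CPM at ZT23. The 2 dark groups lay above both light groups without overlap, and ZT17 above ZT23. Per3 averaged 17.9 ± 4.93, 15.8 ± 3.1, 60.7 ± 10.6 and 54.8 ± 3.87 CPM at the 4 times, and Tef 48.3 ± 15, 43.8 ± 36, 184 ± 70.4 and 149 ± 26 CPM. Their dark groups overlapped each other and lay above both light groups.

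Per2, a period gene that also responds to glucocorticoids and feeding, came latest among the repressors. It had 50.6, 46.8, 77.5 and 94.7 CPM at ZT5, 30.5, 22.7, 21.9 and 34.2 CPM at ZT11, 33.5, 51.9, 37 and 126 CPM at ZT17 and 102, 106, 209.5 and 97.7 CPM at ZT23. The ZT23 libraries lay above those of ZT5 and ZT11, while ZT17 overlapped every other group. The fitted peaks ran from Nr1d1 at 15.8 ± 0.301 h through Dbp at 18.1 ± 0.384 h, Nr1d2 at 18.6 ± 0.305 h, Ciart at 19.2 ± 0.454 h, Per3 at 20 ± 0.448 h and Tef at 20.3 ± 0.622 h to Per1 at 21.2 ± 0.968 h and Per2 at 23.5 ± 0.748 h. Neighbours in this order from Dbp to Per1 lay closer than the sum of their SEs. Cry1, the repressor that acts late in the cycle, was not called (adjusted p = 0.349), although its cosine amplitude was 1.09 ± 0.45. Its libraries spread widely, with 74.8, 74.5, 63.5 and 10.9 CPM at ZT11 and 9.34, 50.8, 36.5 and 9.54 CPM at ZT17.

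**Figure D1:**
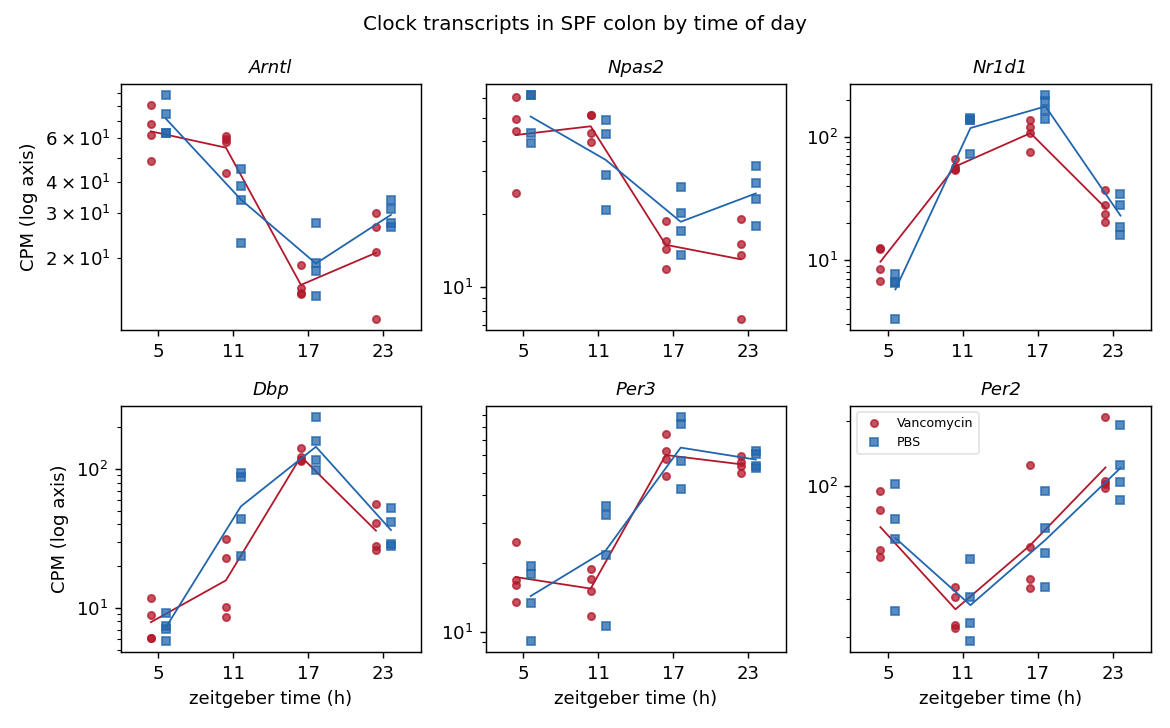
CPM on a log axis (y) by zeitgeber time in h (x) for 6 clock genes in SPF colon, with 1 point per library (red circles vancomycin, blue squares PBS, 4 each) and lines through the geometric means. Arntl and Npas2 are high at ZT5 and ZT11 after vancomycin, Nr1d1 and Dbp are highest at ZT17 and Per2 at ZT23.

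Genes known as outputs of the clock were called often, without a common direction between ZT17 and ZT5. Of 24 genes on this list 11 were called, against 8.2% of all genes, 5 of them highest at ZT17, 4 at ZT23 and 1 each at ZT5 and ZT11. The list shares 2 genes with the 21 clock genes, and Usp2 with the clock modifiers. Of the 24 genes 12 had a positive log2 fold change between ZT17 and ZT5 (median 0.01), and 17 between ZT23 and ZT11 (median 0.46). Wee1, a kinase that delays entry into mitosis, had 14.8, 19.6, 19.8 and 16.5 CPM at ZT5, 11.6, 9.88, 12 and 9.42 CPM at ZT11, 22.8, 18.7, 20.1 and 25.7 CPM at ZT17 and 31.3, 24.3, 35 and 25.8 CPM at ZT23. Its ZT11 libraries lay below all others, and the log2 fold change between ZT23 and ZT11 was 1.44 ± 0.19 (adjusted p = 0.000218). Tspan4, a tetraspanin, averaged 7.78 ± 3.3, 8.11 ± 1.4, 24.1 ± 6.35 and 12.8 ± 0.957 CPM at the 4 times (adjusted p = 0.000975). Usp2, a deubiquitinase with a clock-driven transcript, averaged 12 ± 5.77, 9.78 ± 1.56, 31.4 ± 5.74 and 30 ± 5.77 CPM, with both dark groups high. Of 31 cell cycle genes 2 were called (6.45%, below the 8.2% of all genes), Wee1, already among the 11 output calls, and Cdc6. Cdc6, a replication licensing factor, averaged 6.32 ± 2.72 CPM at ZT23 and 6.3 ± 3.14 CPM at ZT5, against 2.97 ± 1.47 CPM at ZT11 and 2.38 ± 0.72 CPM at ZT17. The smooth muscle covariate gave 6 output calls in place of 11, the fit without the ZT11 vancomycin libraries gave 3, and the other alternatives gave 7 to 12.

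Genes of cholesterol synthesis and uptake were highest at the end of the night. Of 24 tested, 19 were called (79.2%, against 8.2% of all genes), and all 19 had their highest mean at ZT23. All 24 had a positive log2 fold change between ZT23 and ZT11, with a median of 0.58 against -0.01 over all genes, and 12 of them rose (2.73% of all genes rose between these times). Lss, which closes the sterol ring, had 23.8, 20.2, 32.5 and 24.7 CPM at ZT5, 35.7, 31.8, 37.7 and 48.1 CPM at ZT11, 35.7, 46.2, 63 and 47.6 CPM at ZT17 and 69, 86.4, 102 and 51.5 CPM at ZT23. Its levels stood in the order of the times, and only neighbouring groups overlapped. Insig1, which holds the sterol-sensing machinery in the endoplasmic reticulum, had 62.4, 63.9, 64.2 and 78.6 CPM at ZT5, 119, 123, 129 and 102 CPM at ZT11, 73.6, 74.5, 93.3 and 111 CPM at ZT17 and 191, 132, 172 and 109.7 CPM at ZT23. It had a second high group at ZT11, did not overlap between ZT5 and ZT11, and overlapped between ZT11 and ZT23. The count of 19 was 6 with the smooth muscle and B cell scores as covariates, 7 in the 24 h cosine test, 9 with the smooth muscle score alone, 11 in the 16 vancomycin libraries alone and 13 without the ZT11 libraries. The other alternatives gave 17 to 20, and leaving out any 1 library gave 13 to 20.

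Genes of fat synthesis were divided between the times. Of 16 lipogenesis genes 5 were called (31.25%, against 8.2% of all genes), 2 of them highest at ZT23, 2 at ZT11 and 1 at ZT17. The smooth muscle covariate gave 1 call, the alternatives ran from 1 to 7, and leaving out ZT11 replicate 1 gave 3. Fasn, the fatty acid synthase, had 257, 287, 269 and 205 CPM at ZT23, above every library of the other times, and its log2 fold change between ZT23 and ZT11 was 0.88 ± 0.17 (adjusted p = 0.00271). Scd2, a fatty acid desaturase, averaged 974 ± 278, 642 ± 211, 566 ± 134 and 1207 ± 117 CPM at the 4 times. Me1, the malic enzyme that supplies NADPH, was highest at ZT11, with 35.2 ± 6.83 CPM, against 15.8 ± 3.69 CPM at ZT5 and 15 ± 4.74 CPM at ZT23.

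Genes of fatty acid oxidation and ketogenesis were highest earlier, in the middle of the night. Of 28 tested, 7 were called (25%, against 8.2% of all genes), and all 7 had their highest mean at ZT17. 24 of the 28 had a positive log2 fold change between ZT17 and ZT5 (median 0.29, against 0.00 over all genes), and 5 of them rose, against 0.614% of all genes. Cpt1a, which admits long-chain fatty acids to mitochondria, had 140.2, 121, 134 and 110.0 CPM at ZT5, 108, 128, 159 and 102 CPM at ZT11, 209, 152, 216 and 283 CPM at ZT17 and 102, 118, 115 and 135 CPM at ZT23. The ZT17 group was high and overlapped ZT11 alone. Ucp2, a carrier of the inner mitochondrial membrane, had 577, 540.3, 616 and 540.4 CPM at ZT17 and 541, 515, 498 and 585 CPM at ZT23, all above the highest light-phase library at 457 CPM. Acaa2, Acadl, Hadha and Slc25a20, which act in beta-oxidation or carnitine transport, were called as well. The smooth muscle covariate gave 2 calls in place of 7, the fit of the 16 vancomycin libraries alone 3 and DESeq2 12. Leaving out 1 library gave 3 to 10, with 3 without ZT17 replicate 4 or ZT5 replicate 3 and 4 without replicate 1 of either time.

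**Figure D2:**
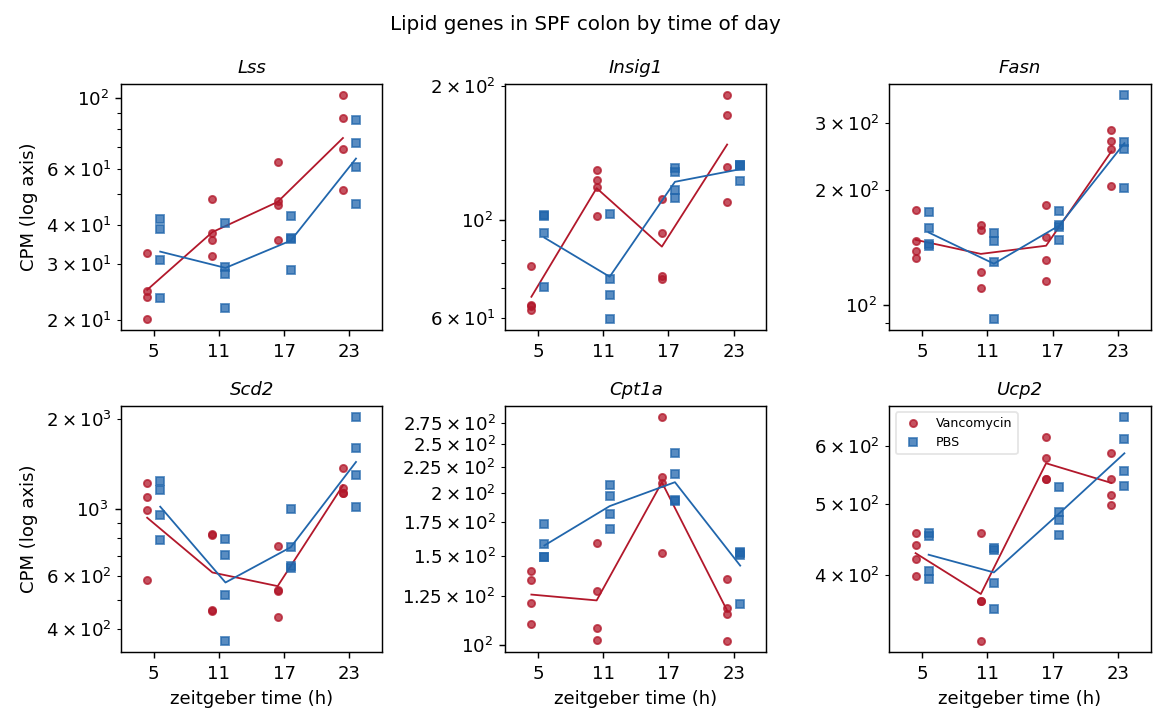
CPM on a log axis (y) by zeitgeber time in h (x) for 6 genes of cholesterol synthesis, fat synthesis and mitochondrial fat use in SPF colon, with 1 point per library (red circles vancomycin, blue squares PBS, 4 each) and lines through the geometric means. After vancomycin Lss, Insig1, Fasn and Scd2 have their highest mean at ZT23, and Cpt1a and Ucp2 at ZT17.

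Called detoxification genes had their highest mean in the dark. Of 37 xenobiotic genes 7 were called (18.9%, against 8.2% of all genes), 2 highest at ZT17 and 5 at ZT23. Between ZT23 and ZT11 30 of the 37 had a positive log2 fold change, and 7 of them rose, against 2.73% of all genes. The count of 7 ran from 2, with the smooth muscle covariate, to 11 over the alternatives, and was 4 without ZT11 replicate 1 and 13 without ZT11 replicate 3. Nr1i3, the nuclear receptor CAR that senses foreign compounds, averaged 2.12 ± 0.424, 2.63 ± 0.756, 6.11 ± 2.03 and 5.74 ± 0.906 CPM, and was called in all 28 alternatives. Cyp2c68, a cytochrome P450, averaged 47.2 ± 6.13, 19.3 ± 7.82, 58.4 ± 13.6 and 61.1 ± 9.53 CPM, with ZT11 the low group. Of 26 endoplasmic reticulum chaperone and stress genes 4 were called (15.4%, against 8.2% of all genes), all highest at ZT23, while 11 of the 26 had a positive log2 fold change between ZT17 and ZT5 (median -0.11). They were Canx, the glycoprotein chaperone calnexin, Herpud1, of the degradation pathway, and Hyou1 and Sdf2l1, both luminal chaperones or partners of them, and 8 of the 26 rose between ZT11 and ZT23, against 2.73% of all genes. The count of 4 was 0 with the smooth muscle covariate and in the 16 vancomycin libraries alone, 1 without the ZT11 libraries, and 9 in DESeq2 and without ZT5 replicate 2. Of 20 heat shock and chaperone genes 5 were called (25%, and 3 to 6 with 1 library left out), with their highest means spread over all 4 times. Rbm3 among them, and Herpud1 of the list before, are also counted among the called clock outputs. Of 19 glucocorticoid targets 5 were called (26.3%), and 2 to 6 in the alternatives. Of these, Per1 is also a core clock call, and Tsc22d3 is also called on the clock output and the sodium channel and aldosterone lists. Mt2, a metallothionein, averaged 23.7 ± 10.8, 18.4 ± 7.04, 54.4 ± 32.4 and 6.03 ± 1.89 CPM at the 4 times, while Tsc22d3, an anti-inflammatory target, averaged 159.9 ± 12.4 and 162 ± 22.2 CPM at ZT5 and ZT23, against 102 ± 26.5 and 95.3 ± 23.3 CPM at ZT11 and ZT17.

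In the epithelium, lists of ion and sugar handling and of the barrier held between 1 and 4 called genes each, to be read against 8.2% of all genes. Of 20 genes of chloride, bicarbonate and proton transport 4 were called (20%), 12 had an unadjusted p under 0.05, and 16 had a positive log2 fold change between ZT17 and ZT5. The count of 4 ran from 0 to 6 over the alternatives and from 2 to 5 with 1 library left out. Car2, the carbonic anhydrase that supplies bicarbonate, had 733, 792, 756 and 828 CPM at ZT5, 492, 544, 607 and 356 CPM at ZT11, 871, 666, 1059 and 946 CPM at ZT17 and 955, 1078, 1162 and 911 CPM at ZT23. Its ZT11 libraries lay below all others. Of 12 genes of the sodium channel and aldosterone pathway 3 were called (25%), and 1 to 3 with 1 library left out. Atp1b1, the beta subunit of the sodium pump, and Nr3c2, the mineralocorticoid receptor, had adjusted p of 0.0261 and 0.0272. The third was Tsc22d3, named above among the glucocorticoid targets. Of 22 glucose genes 3 were called (13.6%, and 1 to 7 in the alternatives), while 18 had a positive log2 fold change between ZT17 and ZT5 (median 0.28, against 0.00 over all genes). The called genes were Slc5a1, the sodium and glucose cotransporter, Slc2a5, the fructose transporter, and Upp1, a uridine phosphorylase. Slc2a5 was scarce and averaged 4.18 ± 2.41 CPM at ZT17, against 0.611 ± 0.275 CPM at ZT5.

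Of 20 tight junction genes 2 were called, Cldn8 and Cldn23 (10%, close to the 8.2% of all genes). The list as a whole had no common direction between ZT17 and ZT5, with 12 of 20 log2 fold changes positive (median 0.02). Cldn8, a sealing claudin of the distal gut, had its higher means in the light. It had 207, 98.7, 146 and 205 CPM at ZT5, 122, 112, 89.6 and 129 CPM at ZT11, 46.2, 30.2, 94.8 and 68.9 CPM at ZT17 and 51.5, 39.4, 60.9 and 70.9 CPM at ZT23. The light-phase libraries lay above the dark-phase ones except for 1 library of ZT17 that overlapped ZT11. The log2 fold change was -1.45 ± 0.27 between ZT17 and ZT5 (adjusted p = 0.00533), and the call held in all 28 alternatives. Slc34a2, a phosphate cotransporter, had 9.18, 5.61, 8.45 and 6.07 CPM at ZT17, below every library of the other times, whose groups averaged 67.6 ± 20.6 CPM at ZT5, 60.1 ± 22.5 CPM at ZT11 and 40.2 ± 30.4 CPM at ZT23. Hnf4g, a transcription factor of enterocytes, was the one called member of 25 colonocyte genes (4%, below the 8.2% of all genes), with 35.1 ± 3.99 and 33 ± 5.1 CPM at ZT5 and ZT23, against 22.9 ± 2.3 and 23.7 ± 2.15 CPM at ZT11 and ZT17. Among Wnt pathway and stem cell genes, 4 of 16 were called (25%), with 0 to 5 in the alternatives and 2 to 4 with 1 library left out, and Rnf43, which removes Wnt receptors, averaged 38.5 ± 9.89 and 38.3 ± 9.19 CPM at ZT17 and ZT23, against 22.1 ± 8.79 and 17.8 ± 5.34 CPM at ZT5 and ZT11.

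Mucosal defence genes split by gene. Of 32 epithelial antimicrobial genes 6 were called (18.75%, against 8.2% of all genes). The count ran from 1, in the 24 h cosine test, to 7 over the alternatives, and leaving out 1 library gave 2 to 6, with 2 without ZT17 replicates 1, 2 or 4. Mptx1, a mucosal pentraxin, had 973, 1102, 1197 and 795 CPM at ZT5, 1479, 1553, 1249 and 1693 CPM at ZT11, 4309, 4278, 3137 and 3044 CPM at ZT17 and 3695, 1986, 1427 and 2434 CPM at ZT23. The ZT17 libraries lay above both light groups without overlap, with a log2 fold change of 1.86 ± 0.37 from ZT5 (adjusted p = 0.00823), and the call held in all 28 alternatives. After PBS the adjusted p for time was 0.584, while the treatment by time test gave 0.134, so a difference between treatments was not shown. Mptx1 and Mptx2, Gsta3 and Gsta4, and Ifi27l2a and Ifi27l2b are pairs of related genes, and the values within a pair may share reads. Reg3b, a bactericidal lectin, was called at an adjusted p of 0.0385 on the strength of ZT11 libraries that averaged 58.8 ± 107 CPM, and 19 of 28 alternatives ended the call.

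Immune lists gave few calls. Of 45 interferon-stimulated genes 4 were called (8.889%, close to the 8.2% of all genes), all highest at ZT11, among them Irf7, the master regulator of the type I response, with 209.8 ± 37.5 CPM there, against 68.8 ± 16.3 CPM at ZT17. The count of 4 was 0 with the smooth muscle covariate, 1 with limma-trend and 9 in DESeq2, and it was 12 without ZT11 replicate 3 and 0 without ZT17 replicate 4. The mean score of the whole list was 4.74 log2 CPM at ZT23 and 4.63 at ZT11. Of 20 B cell and follicle genes edgeR called 0, as did DESeq2, with 0 at an unadjusted p under 0.05, and the same held for 25 T and NK cell genes. The B cell score ranged from 4.77 to 5.73 log2 CPM at ZT5, 0.97 to 5.73 at ZT11, 2.09 to 5.59 at ZT17 and 3.48 to 5.42 at ZT23, so that these groups overlapped widely. Of 16 genes of MHC class I and the immunoproteasome 3 were called, all highest at ZT23 (18.75%, and 0 to 3 in the alternatives), among them H2-T23, the ligand of inhibitory NK receptors, with 171 ± 33.3 CPM at ZT23, against 50.7 ± 17.6 CPM at ZT11.

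The largest block of calls belonged to ZT11, where genes of the muscle wall and matrix stood high. All 20 smooth muscle markers were called. This and the shares of the lists below are to be read against the 8.2% of all genes called. All 20 were highest at ZT11 and fell between ZT11 and ZT23 (5.36% of all genes fell), by a median log2 fold change of -1.18. Cnn1, the smooth muscle calponin, had 699, 812, 775 and 937 CPM at ZT5, 3250.0, 1124, 1649 and 1852 CPM at ZT11, 806, 891, 717 and 1151 CPM at ZT17 and 483, 586, 681 and 279 CPM at ZT23. The ZT11 and ZT23 groups lay apart, and ZT11 replicate 1 was the highest of all. Of 20 fibroblast and matrix genes 7 were called (35%), 6 of them highest at ZT11, with 1 to 8 in the alternatives and 2 to 9 when 1 library was left out, the count being 2 without ZT11 replicates 1 or 3 or ZT23 replicates 1, 3 or 4. Col1a1, the main collagen of connective tissue, had 299, 235, 298 and 413 CPM at ZT11 and 136, 92.5, 74.1 and 115 CPM at ZT23, without overlap. Of 23 markers of enteric neurons, glia and pacemaker cells 4 were called (17.4%), but the count was 0 in the 16 vancomycin libraries alone and without ZT11 replicate 4, 1 with limma-trend, and 10 in DESeq2 and without ZT5 or ZT11 replicate 2. Of 15 enteroendocrine genes 4 were called (26.7%), with 1 to 5 in the alternatives and 2 to 6 with 1 library left out, 2 being the count without ZT11 replicates 1 or 3. Cpe, a prohormone processing enzyme, averaged 348 ± 61.4 CPM at ZT11, against 171 ± 16.9 CPM at ZT5, while Gcg, which encodes proglucagon, was highest at ZT17, with 77.9 ± 15.7 CPM, against 39.9 ± 10.8 CPM at ZT5.

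With the smooth muscle score as a covariate, 290 genes were called for time of day in place of 1389, 263 of them among the 1389, and 1 of the 20 muscle markers. The score is the mean of these same 20 markers, so the loss of their calls was built into that fit. Without the ZT11 vancomycin libraries, a choice made after the scores were seen, 343 genes were called between the other 3 times, 320 of them among the 1389, and 0 of the 20 muscle markers. Leaving out ZT11 replicate 1 alone gave 811. A covariate that follows the times takes part of any time effect with it, so what share of these calls follows the amount of muscle in a sample cannot be told apart from a daily change in muscle transcripts.

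**Figure D3:**
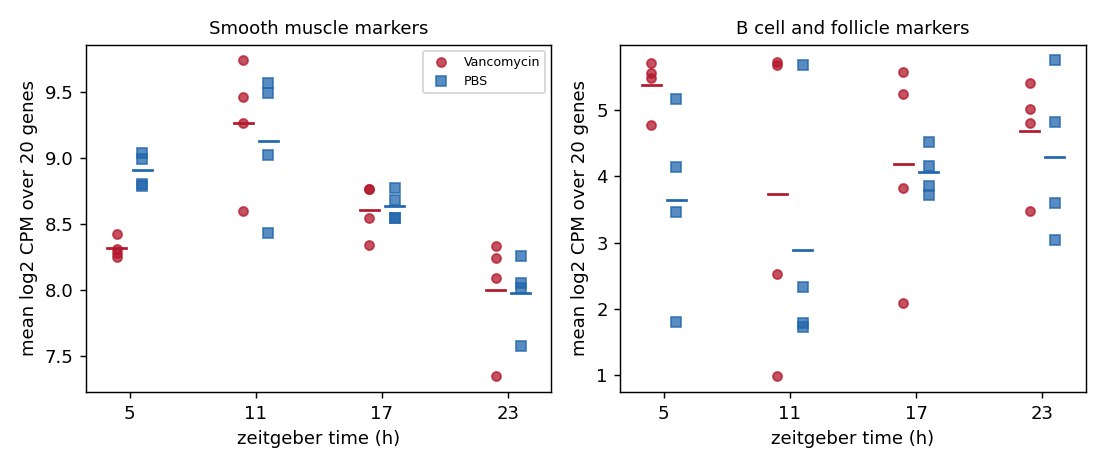
Marker scores, the mean log2 CPM over 20 genes (y), by zeitgeber time in h (x) in SPF colon, with 1 point per library (red circles vancomycin, blue squares PBS, 4 each) and a bar at the group mean. The smooth muscle score has its highest mean at ZT11 and its lowest at ZT23 after both treatments, and the B cell score spreads most at ZT11.

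After PBS, 1507 of 16938 genes (8.9%) were called for time of day, and 635 were called after both treatments, which is 45.7% of the vancomycin calls and 42.1% of the PBS calls. Of the 24 cholesterol genes 17 were called after PBS, of the 28 oxidation genes 7 and of the 20 smooth muscle markers 18. Of the 635 genes, 488 had their highest mean at the same time. The fitted peak was later after vancomycin than after PBS for 519 of the 635, with a median difference of 1.74 h and quartiles of 0.509 and 2.91 h. In the bin from 12 to 15 h lay 351 called genes after vancomycin and 77 after PBS, and in the bin from 9 to 12 h 362 after vancomycin and 506 after PBS. The smooth muscle score at ZT5 ran from 8.25 to 8.43 log2 CPM after vancomycin and from 8.79 to 9.04 after PBS, without overlap, and its part in these bins was not tested.

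**Figure D4:**
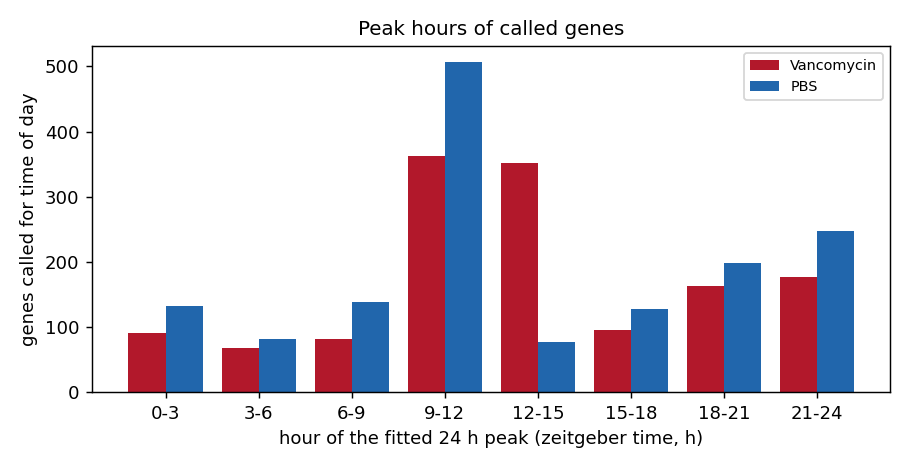
Number of genes called for time of day (y) by hour of the fitted 24 h peak in bins of 3 h of zeitgeber time (x), for vancomycin (red) and PBS (blue) in SPF colon. The bin from 12 to 15 h holds 351 genes after vancomycin and 77 after PBS.

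All 14 clock genes called after vancomycin were called after PBS too, and 13 of the 14 had the later fitted peak after vancomycin, by a median of 1.53 h. The differences ran from -0.54 h for Cry2 to 3.46 h for Nfil3, a repressor at D-boxes. Arntl peaked 1.89 ± 0.62 h later (SE), Dbp 1.61 ± 0.53 h later and Nr1d1 0.513 ± 0.36 h later. Leaving out any 1 of the 32 libraries kept 11 to 14 of the 14 later, with a median between 1.25 and 1.91 h. These genes share libraries, so their number is not a count of independent observations. In GF colon the same 14 genes went the other way, with 13 earlier after vancomycin than after PBS and a median of -0.953 h, which no test was made to compare with the SPF value.

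The test of treatment by time, which asks whether the 4 times differ between vancomycin and PBS, called 61 of 16938 genes (0.36%), with 1659 at an unadjusted p under 0.05. Of the 21 clock genes 1 passed, and 9 had an unadjusted p under 0.05. This was Nr1d2, with 21.3, 28.9, 16.7 and 25.1 CPM at ZT5, 38.8, 54, 43.8 and 31 CPM at ZT11, 102, 102, 99.2 and 128 CPM at ZT17 and 70.7, 91.7, 89.3 and 79.5 CPM at ZT23 after vancomycin. None of these groups overlapped another. After PBS it averaged 13.4 ± 1.41, 81.1 ± 23.4, 129 ± 26.2 and 74.4 ± 4.55 CPM (SD, n = 4 each), so that the vancomycin mean was the lower one at ZT11 and the higher one at ZT5 (treatment by time, adjusted p = 0.0079). Its fitted peak lay at 18.6 ± 0.305 h after vancomycin and at 16.9 ± 0.232 h after PBS. Nr1d1 had 0.0588 in the same test, with an amplitude of 1.81 log2 units after vancomycin and 2.71 after PBS. Insig1 passed as well (adjusted p = 0.0277), with 118 ± 11.5 CPM at ZT11 after vancomycin and 75.9 ± 18.8 CPM after PBS.

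Many of the other genes in this test followed 2 single groups. For 30 of the 61 the group farthest from the other times was ZT17 after vancomycin and ZT11 after PBS, in the same direction, 18 of them lower and 12 higher. The 61 were chosen because their times differed between treatments, which favours unlike farthest groups. This pattern was not counted over all genes. Itln1, a lectin that binds microbial sugars, had 680.1, 819.8, 773 and 754 CPM at ZT5, 448, 2.71, 543 and 732 CPM at ZT11, 2.23, 2.35, 2.09 and 2.08 CPM at ZT17 and 703, 257, 991 and 421 CPM at ZT23 after vancomycin. It was all but missing at ZT17 and in ZT11 replicate 2. After PBS it averaged 632 ± 513, 5.33 ± 3.47, 782 ± 1206 and 452 ± 363 CPM, with its lowest group at ZT11. Hsd17b13, an enzyme of lipid droplets, had 3.59, 2.93, 4.43 and 3.3 CPM at ZT17 after vancomycin, below every other vancomycin library, and its PBS libraries averaged 13.7 ± 16.6 CPM at ZT11 and 63.6 ± 28.2 CPM at ZT17. Col8a1, a collagen of blood vessels, did the reverse. It had 5.47, 6.7, 5.82 and 12.4 CPM at ZT5, 15.3, 9.53, 24.9 and 13.3 CPM at ZT11, 41.3, 25.7, 31.3 and 22.7 CPM at ZT17 and 5.91, 5.16, 5.75 and 2.54 CPM at ZT23 after vancomycin, and 48.5 ± 16.7 CPM at ZT11 and 8.1 ± 0.979 CPM at ZT17 after PBS. The ZT17 group overlapped ZT11 alone after vancomycin. Ifi27l2b, of a family induced by interferon, averaged 87 ± 27.8 CPM at ZT17 after vancomycin, against 15.6 ± 3.25 CPM at ZT5, and 61.1 ± 39.2 CPM at ZT11 after PBS. Stim1, the calcium sensor of the endoplasmic reticulum, Trim12c, Golt1a, Lrrc31, Khdrbs2 and Nmnat1 made up the rest of those with the smallest p.

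**Figure D5:**
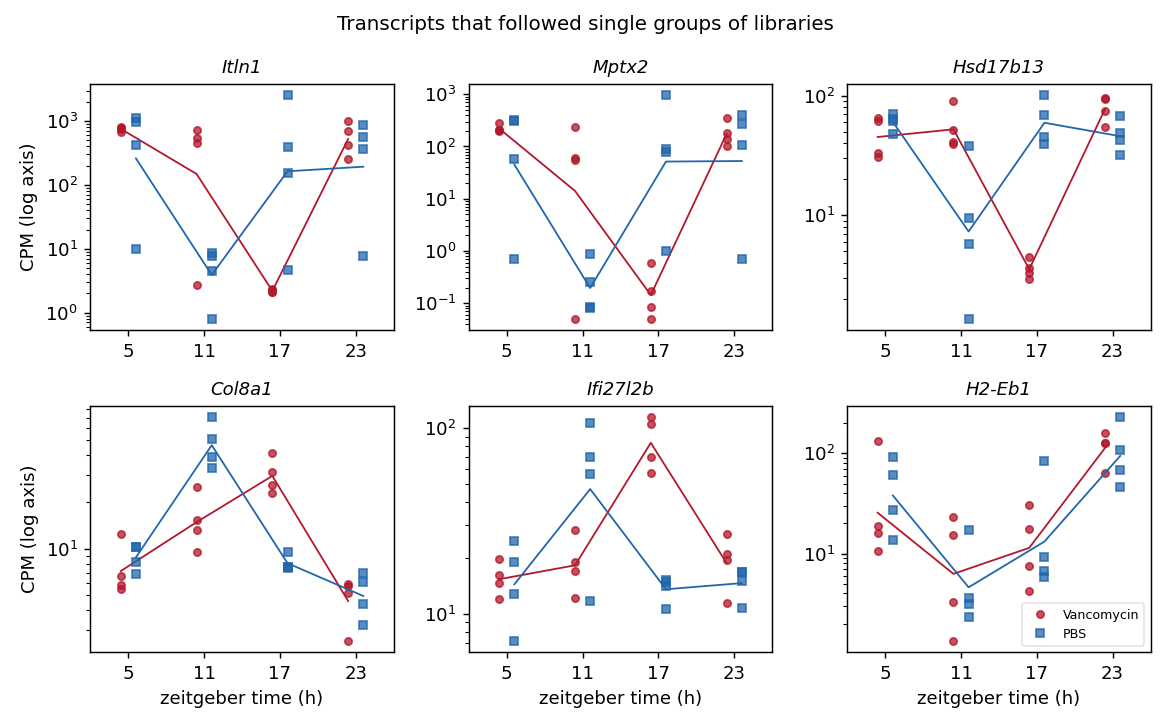
CPM on a log axis (y, values under 0.05 drawn at 0.05) by zeitgeber time in h (x) for 6 genes in SPF colon, with 1 point per library (red circles vancomycin, blue squares PBS, 4 each) and lines through the geometric means. Itln1, Mptx2 and Hsd17b13 are lowest at ZT17 after vancomycin and at ZT11 after PBS, while Col8a1 and Ifi27l2b are highest in those groups and H2-Eb1 is highest at ZT23 after both treatments.

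Such all-or-none levels within a group of 4 libraries were also seen in processed pseudogenes. Actr3-ps had 0.239, 0, 0.585 and 0.26 CPM at ZT17 after vancomycin, against 73.3 ± 12.9 CPM at ZT5, and Rpl21-ps7 had 40.6, 53.8, 36.3 and 41.4 CPM at ZT23, against at most 0.403 CPM in any other vancomycin library. Pseudogenes share sequence with their parent genes, and their values depend on how reads were assigned. H2-Eb1, an MHC class II chain, had 127, 128, 63.6 and 159 CPM at ZT23 after vancomycin, while the other times ran from 1.34 to 134 CPM and overlapped it through 1 library of ZT5. The labels give no cage, litter or parent for the mice, and inherited differences shared within a group cannot be told apart from time of day where they fall on 1 group.

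Against GF colon, the test of whether the 4 times differ between SPF and GF mice, both after vancomycin, called 12 of 16604 genes (0.0723%), with 2126 at an unadjusted p under 0.05. Among those named were Actr3-ps, Rpl21-ps7, Itln1 and Ifi27l2b, the genes of the group-wise pattern. The smallest adjusted p among the clock genes was 0.105, and 9 of the 21 had an unadjusted p under 0.05. Nr1d1 peaked at 15.8 ± 0.301 h in SPF and at 13.8 h in GF colon after vancomycin, Dbp at 18.1 ± 0.384 h in SPF and 15.6 h in GF, and Arntl at 7.29 ± 0.385 h in SPF and 6.03 h in GF.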

How the data were processed

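Poly(A) RNA from 1000 ng of total RNA was sequenced as single-end reads of 75 cycles, per the labels' protocols. Per the submitters' processing notes, the tools were Salmon, cutadapt 3.5 and Trim Galore 0.6.2, with GRCm39 as the build. Annotation and strand setting: not given in the sources used here. The deposited values were read as unscaled estimated counts per gene, as Salmon gives them, although the authors' table names call them normalized. The most common low value was 0.97 to 1.01 in each SPF library, so no depth scaling was visible, but an adjustment of single genes would not show, and the count tests rest on this reading. Precision is set by 4 libraries per group and the totals given above.

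Counts were rounded, and genes with at least 10 in at least 4 libraries were kept, 16938 of 35534. The 32 SPF libraries were fitted with edgeR 4.0.16 (TMM, quasi-likelihood F tests, 8 group means, R 4.3.3) with two-sided tests and Benjamini-Hochberg adjustment over all genes tested. SPF and GF colon were compared by differences within each table only. A 24 h cosine was drawn through the 4 group means of log2 CPM (prior count 2). Alternatives used DESeq2 1.42.0, limma 3.58.1, other filters, scores as covariates and left-out libraries. The tests were checked on simulated data.

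The members and gene lists were chosen with earlier results of these data known. Named genes are the tested clock genes, for each time the 6 called genes of largest amplitude with a mean of at least 5 CPM and a proper symbol, up to 4 called genes of smallest p per list, and up to 10 and 4 genes from the treatment by time and the SPF against GF tests. Other list members are named as the called members of a list, and their values were seen before they were chosen. Some genes that this rule names are not reported here.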

Additional observations from a re-analysis of the deposited data

Results flagged for a closer look

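Among 31 genes checked in the 4 vancomycin groups, 9 of 124 groups held 1 library far from the other 3 of its group. Chance alone flags about 1 in 20 such groups. At ZT5, Per1 had 37.1 CPM in replicate 1, against 54.1 to 57.4 CPM in the others, Insig1 78.6 CPM in replicate 4 (others 62.4 to 64.2) and Mptx2 284 CPM in replicate 3 (others 194 to 208). At ZT11, replicate 4 was low for Arntl, at 43.3 CPM (others 57.5 to 60.7), and for Cry1, at 10.9 CPM (others 63.5 to 74.8), and replicate 2 had 2.71 CPM of Itln1 (others 448 to 732). At ZT17, Nr1d2 had 128 CPM in replicate 4 (others 99.2 to 102). At ZT23, replicate 3 was high for Per2, at 209 CPM (others 97.7 to 106), and replicate 4 had 2.54 CPM of Col8a1 (others 5.16 to 5.91).

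The differences between the 4 times were not the same after vancomycin as after PBS for several named genes, by the edgeR test of treatment by time. Adjusted p was 7.17e-04 for Actr3-ps and Hsd17b13, 7.69e-04 for Col8a1, 0.00186 for Stim1 and Trim12c, 0.00218 for Ifi27l2b, 0.00464 for Golt1a, 0.00518 for Khdrbs2 and Lrrc31, 0.00679 for Nmnat1, 0.0079 for Nr1d2 and 0.0089 for Itln1. It was 0.0133 for Mptx2, 0.0175 for Hnf4g and 0.0277 for Insig1. Of these, the first 10 kept their call in each of 41 alternatives that were run. Between SPF and GF colon after vancomycin the same kind of test gave adjusted p of 2.68e-11 for Actr3-ps, 9.13e-10 for Rpl21-ps7 and 0.0112 for Itln1 and Ifi27l2b.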

How the results depend on the processing

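The number of genes called for time of day after vancomycin was 1389, and it was 290 with the smooth muscle score as a covariate, 332 with the smooth muscle and B cell scores together, 343 without the ZT11 vancomycin libraries (both added after the data were seen), 770 with the colon position score, 686 in a fit of the 16 vancomycin libraries alone and 2254 in DESeq2, 1383 of them among the 1389. After PBS, where 1507 were called, the smooth muscle covariate gave 333, the position covariate 332, both scores 758 and DESeq2 2639. Between ZT17 and ZT5, where 179 were called, no filter on low counts gave 118, the vancomycin libraries alone 94 and DESeq2 477. Between ZT23 and ZT11, where 1370 were called, the smooth muscle covariate gave 3, both scores 3, the position covariate 741 and the vancomycin libraries alone 872. DESeq2 called 205 genes for treatment by time in place of 61, and 240 for SPF against GF in place of 12, where the position covariate gave 25. The cause of these shifts was not tested. No other alternative moved one of these counts over all genes by more than 1.5 times. Counts within gene lists moved more, and their ranges stand beside them.

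Leaving out 1 library at a time gave 811 to 1729 calls for time after vancomycin (811 without ZT11 replicate 1), 672 to 1933 after PBS (672 without PBS ZT11 replicate 3, 838 without replicate 4) and 40 to 83 for treatment by time (40 without PBS ZT17 replicate 3). It gave 89 to 142 between ZT17 and ZT5, with 99 without ZT17 replicate 4 and 112, 89 and 116 without ZT5 replicates 1, 3 and 4. Between ZT23 and ZT11 it gave 593 to 1611, with 807 and 593 without ZT23 replicates 3 and 4 and 759 and 861 without ZT11 replicates 1 and 4. For SPF against GF it gave 4 to 152. There 152 came without GF vancomycin ZT11 replicate 1 and 19 without GF ZT23 replicate 3. Without SPF ZT11 replicates 1 and 2 it was 22 and 21, and 4, 5, 5 and 6 without SPF ZT17 replicates 1 to 4.

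Replicate numbers did not pair the libraries, since same-numbered libraries had correlations of -0.262 to 0.267 in their deviations from group means and 3 libraries matched best a library of the same number. A replicate block gave 1247 calls for time after vancomycin and moved no count over all genes by more than 1.5 times. Within lists it gave 4 calls in place of 7 for fatty acid oxidation and for fibroblast and matrix genes, 3 in place of 6 for antimicrobial genes, 3 in place of 5 for glucocorticoid targets, 2 in place of 4 for Wnt and stem cell genes and 1 in place of 4 for neuron, glia and pacemaker markers.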
